A study of Homo sapiens with 6 samples.

Results

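Enzymes that add methyl groups to lysines of histones, or take them off, were compared between SK-MES-1 cells cultured with exosomes and SK-MES-1 cells cultured without them. The 42 genes are all rows of the 15761-gene table whose symbol starts with KMT2, KMT5, SETD, EHMT or SUV39H, or with KDM or NSD followed by a digit; KDM5D was not used, and while the rule itself reads only names, it was set with earlier results of these data known. SK-MES-1 is an established human line of lung squamous carcinoma cells, labelled wild type in both groups. The exosome group was given complete medium with 20 µg/ml of exosomes from lung fibroblasts of idiopathic pulmonary fibrosis (DHLF-exo) for 72 h (n = 3 libraries), and the control group was kept for the same time without exosomes (n = 3). Total RNA of each culture was sequenced, and since no label tells whether the 3 cultures of a group were grown independently, the p-values given here measure only how these libraries varied, a spread that may be technical.

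Lysine methylation on histone tails marks chromatin states and is read by other proteins. Methylation of lysine 4 of histone H3 (H3K4) is a mark of promoters and enhancers, H3K36 methylation of transcribed gene bodies, and H3K9 and H4K20 methylation of heterochromatin. Most of the enzymes that write it carry a SET domain and take the methyl group from S-adenosylmethionine; the erasers use either FAD, as KDM1A does, or iron and alpha-ketoglutarate in a JmjC domain. Alterations of KMT2D and NSD3 are known from squamous carcinoma of the lung.

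All 42 genes passed the filter on low counts, and 12449 genes were tested. With exosomes 13 of the 42 were higher and 17 were lower at an adjusted p under 0.05 (edgeR's quasi-likelihood test on the read counts, Benjamini-Hochberg adjustment over all genes tested), and 12 were not called. Of the 42 genes 31.0% were thus higher and 40.5% lower, against 25.6% higher and 26.1% lower among all genes tested, and the median log2 fold change was -0.06 over the 42 genes and -0.0042 over all genes. In 30 of the 42 genes every exosome library lay on one side of every control library, which was so for 59.3% of all genes. The largest difference upward was in KMT5C, at 1.89-fold, and the largest downward in KDM7A, at 1.69-fold lower. A separate estimate accounts for the base composition and length of the transcripts. Across the whole table log2 fold changes climbed with the GC content of a gene's longest transcript and fell with its length. A fit that removes both trends is called corrected here. It left 9 of the 42 genes higher and 3 lower, where 18.2% of all genes were higher and 17.3% lower. Whether these trends are technical was not tested, and any real difference that follows GC content or length is removed with them. Of the 30 genes called without the correction, 10 were called in the same direction with it: KMT2B, KMT2D, SETD1B, EHMT1, SETD4, SETD6, KDM5C and KDM6B higher, and KDM1A and KDM7A lower. The other 20 were not called with it, none was called in the opposite direction, and NSD2 and SETD9 were called with the correction alone. Scaled by the library totals alone, 14 of the 42 genes were higher and 8 lower (3811 and 2495 of all genes, whose median log2 fold change was then 0.078); SUV39H2, NSD1, KMT5B, SETD3, SETD5, KDM1A, KDM1B, KDM5A and KDM6A lost their calls there. DESeq2 called 11 of the 42 higher and 16 lower (3044 and 3004 of all genes), without SUV39H2 (adjusted p = 0.0677), KMT5A (adjusted p = 0.0602) and KDM8 (adjusted p = 0.0776).

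**Figure D1:**
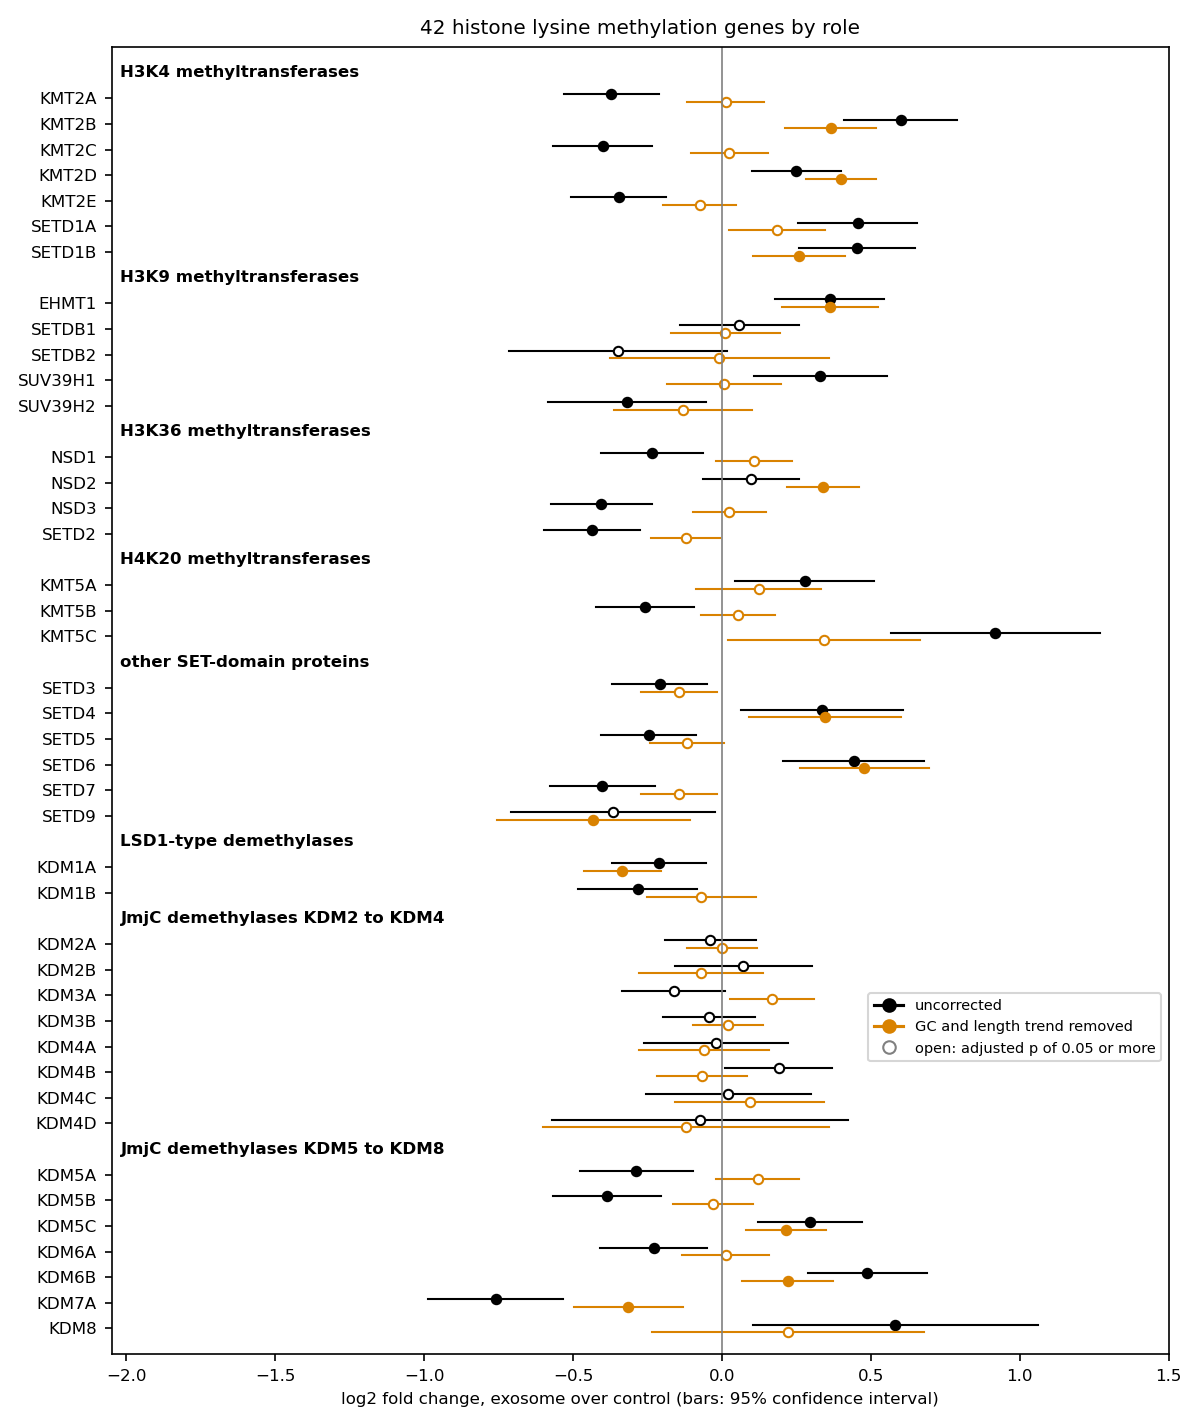
Log2 fold change (exosome over control, x axis) of the 42 genes grouped by role, without correction (black) and with the GC and length trend removed (orange); bars are 95% confidence intervals, filled points have an adjusted p under 0.05. Genes of each role except the LSD1-type demethylases lie on both sides of 0 in black, with KMT5C farthest right at 0.92 and KDM7A farthest left at -0.76. The orange points have a median of 0.016, and their median distance from 0 is 0.12, against 0.31 in black. Some lie farther from 0 in orange, among them KMT2D, NSD2, KDM1A, SETD4, SETD6 and SETD9.

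The libraries held 11346639 to 13334508 counts and 14294 to 14540 detected genes each, and the 42 genes took 49567 to 59588 reads per library, 0.435% to 0.46% of all counts. Values per library are given below as CPM (counts relative to the library total, scaled with TMM factors), in the order of replicates 1, 2 and 3, where 1 CPM stands for 11.01 to 13.6 reads. Control library 3 and exosome library 3 stood apart from the other libraries of their groups. Without both of them 14 of the 42 genes were higher and 19 lower, against 3593 and 3603 of 12525 genes tested. Of 12 markers of squamous carcinoma cells, 10 had a row and 6 reached a mean of 1 CPM; KRT5, KRT6A, KRT14 and DSC3 were under 1 CPM in both groups, so the keratins that define squamous epithelium were near 0 in these cells. The summed level of that list, nearly all EGFR, was 429 to 458 CPM in exosome libraries and 478 to 524 CPM in control libraries. KRT17 averaged 1.08 ± 0.113 CPM with exosomes and 3.57 ± 0.791 CPM without, and SERPINB5 2.31 ± 0.764 and 3.74 ± 0.659 CPM (SD, n = 3 each). The means went the other way in S100A2 (6.81 ± 1.75 CPM with exosomes and 4.48 ± 1.51 CPM without), SOX2 (5.41 ± 1.92 and 4.48 ± 0.739 CPM) and TP63 (2.21 ± 0.158 and 1.56 ± 0.459 CPM). Of 13 fibroblast markers 9 had a row and 5 reached a mean of 1 CPM, and their sum, nearly all VIM, was 3442 to 3593 CPM in exosome libraries and 3884 to 4044 CPM in control libraries, with COL3A1, PDGFRA, THY1 and FAP under 1 CPM. That sum does not show the collagens of the list: COL1A1 averaged 29.8 ± 2.10 CPM with exosomes and 61.9 ± 2.55 CPM without, COL1A2 13.2 ± 1.80 CPM with exosomes and 42.1 ± 3.81 CPM without, and COL6A3 1.38 ± 0.255 CPM with exosomes and 3.41 ± 0.535 CPM without (SD, n = 3 each). Endothelial markers (3 of 6 rows at 1 CPM or more) summed to 11.6 to 13.1 CPM with exosomes and 10.99 to 13.2 CPM without, and leukocyte markers (2 of 5 rows, nearly all CD68) to 186 to 199 CPM with exosomes and 144 to 179.6 CPM without. Mitochondrial and histone transcripts summed to 43390 to 52660 CPM in exosome libraries and 49260 to 73220 CPM in control libraries. The part of these markers in the differences below was not tested, and in bulk RNA fewer cells of a type and less RNA per cell cannot be told apart.

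The SET1/MLL family was taken as 7 genes, the H3K4 methyltransferases together with KMT2E, a relative without established methyltransferase activity. Of these 7, 4 were higher and 3, KMT2E among them, were lower with exosomes. Close relatives differed without the correction: KMT2B and KMT2D were higher while KMT2A and KMT2C were lower. With the correction 3 of the 7 were higher and none was lower. Among all genes tested, 51.7% were called without the correction and 35.4% with it. These shares stand beside the counts of every role below. KMT2A and KMT2B (MLL proteins recruited to promoters together with menin) lay on opposite sides of the controls. In exosome libraries KMT2B stood at 67.8, 68.5 and 61.7 CPM, and in control libraries at 45.4, 45.2 and 40.0 CPM. For KMT2A the values were 203, 219.9 and 237 CPM with exosomes and 288, 289 and 277 CPM without. Every exosome library was above every control library for KMT2B and below every control library for KMT2A. The fitted log2 fold change was 0.60 (SE 0.091) for KMT2B, adjusted p = 1.67e-05, and -0.37 (SE 0.077) for KMT2A, adjusted p = 0.000385. With the correction KMT2B stayed higher at 0.37 (SE 0.073), adjusted p = 0.000607, and KMT2A was at 0.012 (SE 0.063), adjusted p = 0.902. KMT2B lies at chr19:35718019-35738878, plus strand, and KMT2A at chr11:118436464-118526832, plus strand, of GRCh38. The 250 bases upstream of their RefSeq start (GRCh38.p14) are chr19:35717753-35718002 (plus strand) and chr11:118436242-118436491 (plus strand). These windows are shown as KMT2B had the largest uncorrected rise of the genes called higher in both fits. KMT2A is its close relative, called in the opposite direction before the correction. Other pairs of relatives, such as KMT2C and KMT2D, were also called in opposite directions, and their windows are not shown. They held 40 CpG dinucleotides in KMT2B and 31 in KMT2A, against a median of 11 over all windows of the RefSeq table. Capitals mark matches to the GC box GGGCGG or its reverse complement CCGCCC, of which the KMT2B window held 4, counting overlapping ones, and the KMT2A window 3.
KMT2B: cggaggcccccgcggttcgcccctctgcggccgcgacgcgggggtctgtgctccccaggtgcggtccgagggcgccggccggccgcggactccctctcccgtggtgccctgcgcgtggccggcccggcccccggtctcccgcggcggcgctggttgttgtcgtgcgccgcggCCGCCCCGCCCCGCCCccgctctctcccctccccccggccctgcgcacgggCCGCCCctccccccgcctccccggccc
KMT2A: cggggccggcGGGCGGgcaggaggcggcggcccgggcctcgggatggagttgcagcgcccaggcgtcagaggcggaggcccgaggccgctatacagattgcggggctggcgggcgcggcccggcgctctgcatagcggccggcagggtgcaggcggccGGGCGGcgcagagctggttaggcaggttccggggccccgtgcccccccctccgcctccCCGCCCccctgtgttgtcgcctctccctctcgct

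KMT2C and KMT2D, which place H3K4 monomethylation at enhancers, showed the same pattern. KMT2D was measured at 308, 311 and 311 CPM in the exosome group and at 264, 256 and 262 CPM in the control group. KMT2C had 196, 217 and 242 CPM in exosome libraries, against 289, 289 and 287 CPM in control libraries. The KMT2D values were within a narrow range in each group and did not overlap, and the KMT2C values with exosomes were all below those of the controls. The fitted log2 fold change was 0.25 (SE 0.072) for KMT2D, adjusted p = 0.00594, and -0.40 (SE 0.081) for KMT2C, adjusted p = 0.000296. With the correction KMT2D was at 0.40 (SE 0.057), adjusted p = 1.65e-05, and KMT2C at 0.025 (SE 0.062), adjusted p = 0.786. SETD1A and SETD1B, the catalytic subunits of the SET1 complexes that carry out much of the cell's H3K4 trimethylation, were both higher. In exosome libraries SETD1A stood at 72.0, 74.7 and 61.7 CPM, and in control libraries at 56.1, 48.0 and 47.8 CPM. For SETD1B the values were 68.1, 63.0 and 55.2 CPM with exosomes and 46.2, 45.5 and 44.4 CPM without. Their groups did not overlap, and the 2 fold changes were nearly equal, at 0.46 (SE 0.096) for SETD1A, adjusted p = 0.000483, and 0.45 (SE 0.094) for SETD1B, adjusted p = 0.000397. The corrected values were 0.18 (SE 0.078) for SETD1A, adjusted p = 0.0701, and 0.26 (SE 0.074) for SETD1B, adjusted p = 0.00971, so that SETD1B alone stayed called. KMT2E, a relative that reads H3K4 methylation and has no established methyltransferase activity of its own, was lower. KMT2E was measured at 106, 117 and 120.0 CPM in the exosome group and at 146, 146 and 143 CPM in the control group. Its groups did not overlap, its log2 fold change was -0.35 (SE 0.077), adjusted p = 0.000763, and its corrected value -0.075 (SE 0.059), adjusted p = 0.347. KMT2D (at chr12:49018975-49059774, minus strand) and SETD1B (at chr12:121804180-121832584, plus strand) kept their calls with each library left out, as did the other 5 genes of the family. Over every alternative run, the adjusted p was at most 0.000607 for KMT2B, 0.0348 for KMT2D and 0.0097 for SETD1B, while for KMT2A it ran from 1.41e-10 to 0.902 and for KMT2C from 1.92e-11 to 0.786, with the top of both ranges in the corrected fit.

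**Figure D2:**
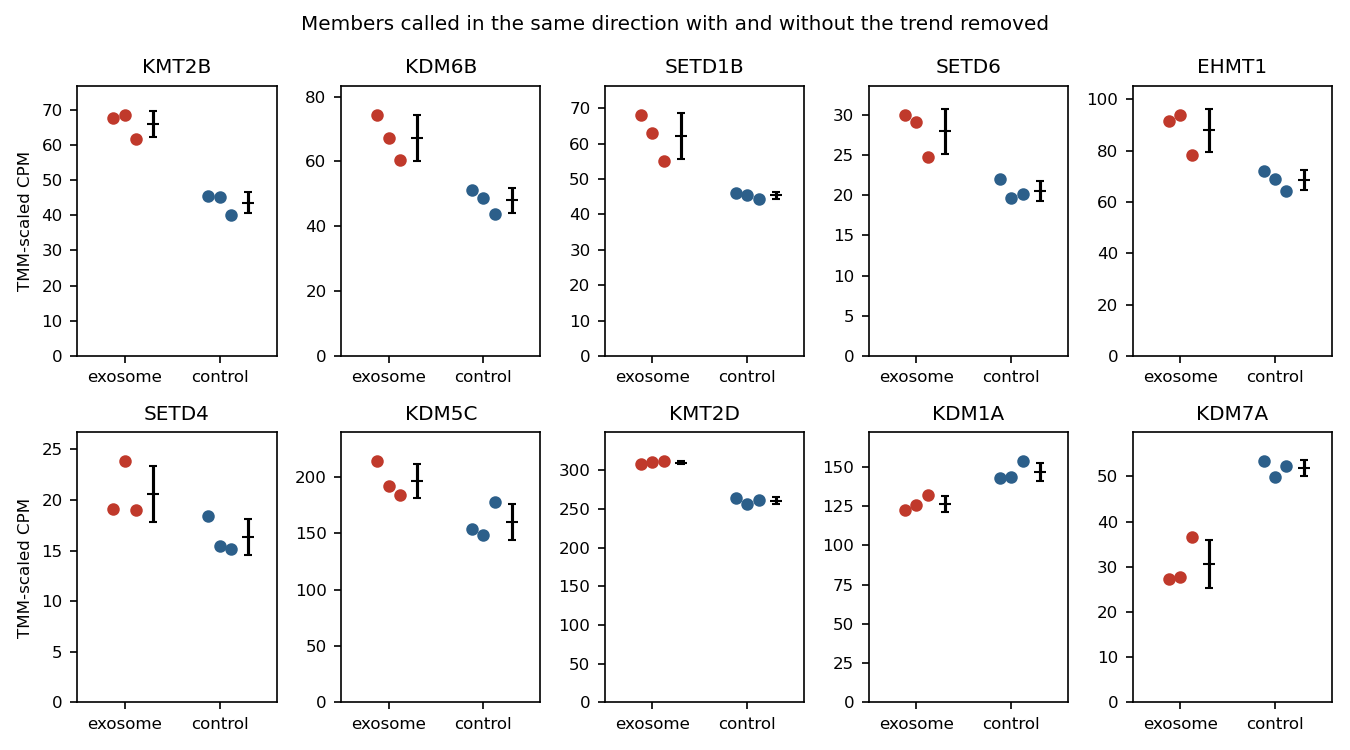
TMM-scaled CPM in each library of the 10 genes called in the same direction with and without the correction; points are libraries, the bar beside them the mean and SD (n = 3), and each axis starts at 0. Exosome libraries (left, red) lie above control libraries (right, blue) in 8 genes and below them in KDM1A and KDM7A, with no overlap in any of the 10.

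Of 5 H3K9 methyltransferases, 2 were higher, 1 was lower and 2 were not called (1 higher and none lower with the correction). EHMT1 (GLP), which places mono- and dimethylation on H3K9 together with its partner G9a, was higher with and without the correction. EHMT1 had 91.6, 93.9 and 78.2 CPM in exosome libraries, against 72.0, 69.0 and 64.4 CPM in control libraries. The lowest exosome library was above the highest control library. EHMT1, at chr9:137618963-137870016, plus strand, had a log2 fold change of 0.36 (SE 0.089), adjusted p = 0.00181, and a corrected value of 0.36 (SE 0.077), adjusted p = 0.00107, and its adjusted p was at most 0.0206 over all alternatives. The 2 SUV39H enzymes, which trimethylate H3K9 in pericentric heterochromatin, were called in opposite directions before the correction and in neither with it. In exosome libraries SUV39H1 stood at 33.3, 34.7 and 28.3 CPM, and in control libraries at 25.1, 26.5 and 25.1 CPM. For SUV39H2 the values were 15.8, 18.1 and 22.7 CPM with exosomes and 23.0, 24.3 and 23.3 CPM without. Neither overlapped between groups, although exosome library 3 of SUV39H2 came within 1 CPM of the control libraries. SUV39H1 had a log2 fold change of 0.33 (SE 0.11), adjusted p = 0.014, and SUV39H2 one of -0.32 (SE 0.13), adjusted p = 0.0415; the corrected values were 0.0072 (SE 0.092), adjusted p = 0.96, and -0.13 (SE 0.11), adjusted p = 0.39. The SUV39H1 call was lost when exosome library 1 was left out, at an adjusted p of 0.0529, and when exosome library 2 was, at 0.0944, and that of SUV39H2 without any library other than exosome library 3 (adjusted p of 0.0587 to 0.234). SETDB1, which silences endogenous retroviruses with TRIM28, averaged 58.4 ± 4.66 CPM in exosome libraries and 56.1 ± 5.83 CPM in control libraries (SD, n = 3 each), with a log2 fold change of 0.058 (SE 0.096) and a 95% confidence interval from -0.14 to 0.26. SETDB2, its less abundant relative, averaged 7.30 ± 1.08 CPM in exosome libraries and 9.34 ± 1.55 CPM in control libraries (SD, n = 3 each), with an interval from -0.71 to 0.016; it was called lower without control library 3 (adjusted p = 0.0377).

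Of 4 H3K36 methyltransferases, 3 were lower with exosomes and none was higher, whereas with the correction none was lower and 1, NSD2, was higher. Among all genes tested, 26.1% were lower without the correction and 18.2% higher with it. SETD2, which trimethylates H3K36 behind elongating RNA polymerase, had the largest fall of them without the correction. SETD2 was measured at 139, 147 and 162 CPM in the exosome group and at 195, 201 and 210.2 CPM in the control group. NSD3 had 109, 105 and 126 CPM in exosome libraries, against 144, 147 and 157 CPM in control libraries. In exosome libraries NSD1 stood at 119, 129 and 146 CPM, and in control libraries at 151, 149.7 and 162 CPM. NSD1 and NSD3 dimethylate H3K36, and in all 3 genes each exosome library was below each control library. The fitted log2 fold changes were -0.44 (SE 0.078) for SETD2, adjusted p = 9.47e-05, -0.40 (SE 0.082) for NSD3, adjusted p = 0.000333, and -0.23 (SE 0.083) for NSD1, adjusted p = 0.022. None of the 3 calls was kept in the corrected fit, where SETD2 was at -0.12 (SE 0.055), adjusted p = 0.0892, NSD3 at 0.025 (SE 0.058), adjusted p = 0.772, and NSD1 at 0.11 (SE 0.062), adjusted p = 0.189. The NSD1 call was also lost without control library 3, exosome library 1 or exosome library 2 (adjusted p of 0.0628, 0.135 and 0.0851 in that order). NSD2, the dimethylating relative that is activated by translocation in multiple myeloma, was set apart. For NSD2 the values were 177, 169 and 182 CPM with exosomes and 157, 158 and 178 CPM without. The groups overlapped, and the uncorrected value was 0.10 (SE 0.078), adjusted p = 0.309, but the corrected one was 0.34 (SE 0.059), adjusted p = 0.000143; over all alternatives the adjusted p of NSD2 ran from 4.26e-05 to 0.545, and it was called without control library 3 and exosome library 3 together (adjusted p = 0.0279).

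All 3 H4K20 methyltransferases were called, 2 higher and 1 lower, and none was called after the correction. Among all genes tested, 51.7% were called without the correction and 35.4% with it. KMT5C, which with KMT5B makes H4K20 di- and trimethylation, had the largest uncorrected rise of the 42 genes. KMT5C was measured at 21.6, 20.6 and 14.7 CPM in the exosome group and at 11.7, 7.63 and 10.7 CPM in the control group. KMT5B had 92.1, 99.5 and 104 CPM in exosome libraries, against 117, 113 and 124 CPM in control libraries. In exosome libraries KMT5A stood at 25.8, 25.6 and 24.4 CPM, and in control libraries at 21.7, 18.6 and 22.1 CPM. KMT5A is the enzyme of H4K20 monomethylation, tied to the cell cycle, and the groups did not overlap in any of the 3 genes. The lowest exosome value of KMT5C, 14.7 CPM in library 3, stood above the highest control value, 11.7 CPM in library 1. The log2 fold change of KMT5C was 0.92 (SE 0.17), adjusted p = 0.000141, that of KMT5B -0.26 (SE 0.079), adjusted p = 0.00922, and that of KMT5A 0.28 (SE 0.11), adjusted p = 0.0437. The corrected values were 0.34 (SE 0.15) for KMT5C, adjusted p = 0.0927, 0.054 (SE 0.060) for KMT5B, adjusted p = 0.521, and 0.12 (SE 0.10) for KMT5A, adjusted p = 0.369; the corrected 95% confidence interval of KMT5C ran from 0.02 to 0.67. KMT5C kept its call with each library left out. KMT5B lost it without exosome library 1 (adjusted p = 0.0547), and KMT5A without control library 1, control library 2, exosome library 1 or exosome library 2 (adjusted p of 0.0534 to 0.193). KMT5C lies at chr19:55339853-55348120, plus strand, with the highest transcript GC content of the 42 genes, 66.1%. The 250 bases upstream of its RefSeq start, chr19:55339626-55339875 (plus strand), are shown as those of the gene with the largest uncorrected rise; they held no GC box, and the capitals mark 2 CCAAT boxes.
KMT5C: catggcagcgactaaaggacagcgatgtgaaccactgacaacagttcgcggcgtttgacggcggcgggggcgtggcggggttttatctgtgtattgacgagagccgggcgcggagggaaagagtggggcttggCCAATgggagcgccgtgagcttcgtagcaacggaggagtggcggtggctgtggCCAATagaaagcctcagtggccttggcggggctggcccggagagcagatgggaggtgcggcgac

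The 6 other SET-domain proteins act largely or partly on proteins other than histones, and 2 were higher and 3 lower (2 and 1 with the correction). SETD6, which methylates the NF-kappaB subunit RelA, had the largest corrected rise of the 42 genes. For SETD6 the values were 30.02, 29.1 and 24.8 CPM with exosomes and 22.0, 19.6 and 20.2 CPM without. SETD4 was measured at 19.1, 23.8 and 19.0 CPM in the exosome group and at 18.4, 15.4 and 15.1 CPM in the control group. SETD4 is a less studied SET-domain protein, and its exosome library 3 and control library 1 lay close to each other, at 19.0 CPM and 18.4 CPM, without overlap, whereas SETD6 had a wider gap. SETD6, at chr16:58515479-58521181, plus strand, had a log2 fold change of 0.44 (SE 0.11), adjusted p = 0.00265, and with the correction 0.48 (SE 0.10), adjusted p = 0.00126. SETD4, at chr21:36034541-36079389, minus strand, had a log2 fold change of 0.34 (SE 0.13), adjusted p = 0.0359, and with the correction 0.35 (SE 0.12), adjusted p = 0.0323; its uncorrected call was lost without control library 2, control library 3 or exosome library 2 (adjusted p of 0.0778 to 0.25). SETD7, which methylates H3K4 and many other proteins, SETD5, a chromatin protein mutated in intellectual disability, and SETD3, the histidine methyltransferase of actin, were lower. SETD7 had 136, 132 and 157 CPM in exosome libraries, against 175, 181 and 205 CPM in control libraries. In exosome libraries SETD5 stood at 164, 167 and 188 CPM, and in control libraries at 208, 208 and 200.0 CPM. For SETD3 the values were 92.0, 93.8 and 88.4 CPM with exosomes and 108, 106 and 103 CPM without. None of the 3 overlapped between groups. The log2 fold changes were -0.40 (SE 0.085) in SETD7, adjusted p = 0.000458, -0.25 (SE 0.077) in SETD5, adjusted p = 0.0109, and -0.21 (SE 0.077) in SETD3, adjusted p = 0.027. The corrected values were -0.14 (SE 0.062), -0.12 (SE 0.060) and -0.14 (SE 0.061), with adjusted p of 0.0742 in SETD7, 0.134 in SETD5 and 0.0735 in SETD3. The SETD5 call was lost without control library 2, exosome library 1 or exosome library 2 (adjusted p of 0.0565 to 0.0715), and that of SETD3 without any library other than control library 3 (adjusted p of 0.0503 to 0.107). SETD9 had low values. SETD9 was measured at 7.63, 6.06 and 7.48 CPM in the exosome group and at 9.32, 9.35 and 8.67 CPM in the control group. Its exosome libraries were all below its control libraries; it had a log2 fold change of -0.37 (SE 0.17), adjusted p = 0.068, and with the correction -0.43 (SE 0.16), adjusted p = 0.0358.

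Both LSD1-type demethylases, which remove mono- and dimethylation from H3K4, were lower with exosomes, KDM1A also with the correction and KDM1B not. KDM1A had 122, 125 and 132 CPM in exosome libraries, against 142, 144 and 153 CPM in control libraries. In exosome libraries KDM1B stood at 35.5, 36.1 and 34.1 CPM, and in control libraries at 39.5, 46.1 and 43.2 CPM. The highest exosome library of each was below its lowest control library. KDM1A (LSD1), at chr1:23019443-23083689, plus strand, had a log2 fold change of -0.21 (SE 0.076), adjusted p = 0.0229, and with the correction -0.33 (SE 0.062), adjusted p = 0.000288, a larger fall than without it. KDM1B (LSD2) had a log2 fold change of -0.28 (SE 0.097), adjusted p = 0.018, and with the correction -0.07 (SE 0.088), adjusted p = 0.574. The uncorrected KDM1A call was lost without control library 2, control library 3, exosome library 1 or exosome library 2 (adjusted p of 0.0667 to 0.0913), and that of KDM1B without control library 2 (adjusted p = 0.128).

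None of the 8 JmjC demethylases KDM2 to KDM4 was called in either fit. KDM2A, which binds CpG islands and demethylates H3K36, had the highest level of the 42 genes per transcript length, at 95.3 ± 2.47 FPKM with exosomes and 92.6 ± 4.42 FPKM without (SD, n = 3). For KDM2A the values were 735, 698 and 745 CPM with exosomes and 753, 712 and 774 CPM without. Its 2 groups overlapped, and the 95% confidence interval of its log2 fold change ran from -0.19 to 0.11. KDM2B, the relative that recruits a Polycomb complex to CpG islands, had an interval from -0.16 to 0.30; KDM3A and KDM3B, which act on H3K9, had intervals from -0.33 to 0.011 in KDM3A and from -0.20 to 0.11 in KDM3B. Among KDM4A, KDM4B and KDM4C, which act on trimethylated H3K9 and H3K36, and KDM4D, which acts on H3K9, the log2 fold changes were -0.021 in KDM4A, 0.19 in KDM4B, 0.021 in KDM4C and -0.074 in KDM4D, with adjusted p from 0.0707 in KDM4B to 0.908 in KDM4C. KDM4B averaged 93.8 ± 6.99 CPM in exosome libraries and 82.2 ± 6.95 CPM in control libraries (SD, n = 3 each); it was called higher without control library 3 (adjusted p = 0.00729), without exosome library 3 (adjusted p = 0.0223), without both (adjusted p = 3.73e-05), with no filter on low counts (adjusted p = 0.0489) and with the library totals as the only scaling (adjusted p = 0.0151), but its corrected value was -0.068 (SE 0.073). KDM3A was called lower without exosome library 3 (adjusted p = 0.0286) and without control library 3 and exosome library 3 together (adjusted p = 0.00237). Its corrected value was 0.17 (SE 0.068), adjusted p = 0.0571, and with the correction and the replicate block together it was called higher (0.17, adjusted p = 0.0415), so its direction depended on the fit. KDM4D was the least abundant of these genes, with 2.59 to 4.11 CPM over the 6 libraries, and a change of the size seen in KMT2D could not be resolved in it, as its interval ran from -0.57 to 0.42.

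All 7 genes taken from KDM5 to KDM8, with KDM8 counted by its name, were called, 3 higher and 4 lower (2 and 1 with the correction). Among all genes tested, 51.7% were called without the correction and 35.4% with it. KDM7A, which removes dimethylation from H3K9 and H3K27, had the largest uncorrected fall of the 42 genes. KDM7A was measured at 27.4, 27.7 and 36.7 CPM in the exosome group and at 53.3, 49.8 and 52.2 CPM in the control group. Exosome library 3 was nearest to the controls, and still below the lowest of them. The log2 fold change was -0.76 (SE 0.11), adjusted p = 9.08e-06, and with the correction -0.31 (SE 0.088), adjusted p = 0.00841; the adjusted p was at most 0.00841 over all alternatives. KDM7A lies at chr7:140084746-140177035, minus strand; the 250 bases upstream of its RefSeq start, chr7:140176984-140177233 (minus strand), read on the minus strand, are shown as those of the gene with the largest uncorrected fall. They were 81.6% GC, whereas the transcript, at 38.5% GC, was the poorest in GC of the 42 genes, and the capitals mark a GC box and an ETS motif (CCGGAAG).
KDM7A: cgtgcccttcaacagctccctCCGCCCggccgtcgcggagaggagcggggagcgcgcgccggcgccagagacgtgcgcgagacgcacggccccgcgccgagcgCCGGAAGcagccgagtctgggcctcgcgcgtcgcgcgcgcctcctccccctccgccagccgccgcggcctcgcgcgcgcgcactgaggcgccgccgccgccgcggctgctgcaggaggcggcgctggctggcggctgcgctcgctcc

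The H3K27 demethylases KDM6A and KDM6B were called in opposite directions before the correction. KDM6B had 74.3, 67.1 and 60.4 CPM in exosome libraries, against 51.3, 48.7 and 43.9 CPM in control libraries. In exosome libraries KDM6A stood at 50.3, 55.1 and 56.5 CPM, and in control libraries at 61.8, 64.5 and 63.4 CPM. KDM6B, induced in many inflammatory responses, did not overlap between groups, nor did KDM6A, the X-linked gene of that pair. KDM6B, at chr17:7839904-7854796, plus strand, had a log2 fold change of 0.49 (SE 0.096), adjusted p = 0.000244, and with the correction 0.22 (SE 0.073), adjusted p = 0.0229. KDM6A had a log2 fold change of -0.23 (SE 0.087), adjusted p = 0.0313, and with the correction 0.012 (SE 0.071), adjusted p = 0.913; its call was lost without any library other than exosome library 3 (adjusted p of 0.0531 to 0.141). Among the H3K4 demethylases KDM5A, KDM5B and KDM5C, KDM5C was higher and the other two were lower. For KDM5C the values were 214, 191 and 184 CPM with exosomes and 154, 148 and 178 CPM without. KDM5B was measured at 95.7, 93.5 and 117 CPM in the exosome group and at 128, 136 and 136 CPM in the control group. KDM5A had 81.0, 84.3 and 104 CPM in exosome libraries, against 103, 112 and 114 CPM in control libraries. Exosome library 3 of KDM5A lay above control library 1, so its groups overlapped, and those of KDM5B and KDM5C did not. KDM5C, at chrX:53191321-53225422, minus strand, had a log2 fold change of 0.30 (SE 0.084), adjusted p = 0.00565, KDM5B one of -0.39 (SE 0.087), adjusted p = 0.000851, and KDM5A one of -0.29 (SE 0.092), adjusted p = 0.012. The corrected values were 0.21 (SE 0.065) in KDM5C, adjusted p = 0.0138, -0.03 (SE 0.065) in KDM5B, adjusted p = 0.751, and 0.12 (SE 0.067) in KDM5A, adjusted p = 0.178. The KDM5A call was lost without control library 2, exosome library 1 or exosome library 2 (adjusted p of 0.0522 to 0.0802). KDM8, a JmjC protein that hydroxylates arginine, had few reads. In exosome libraries KDM8 stood at 4.11, 4.80 and 3.85 CPM, and in control libraries at 2.94, 2.91 and 2.68 CPM. Its groups did not overlap and it had a log2 fold change of 0.58 (SE 0.23), adjusted p = 0.0391, but the call was lost without any library other than exosome library 3 (adjusted p of 0.0623 to 0.164), and the corrected value was 0.22 (SE 0.22), adjusted p = 0.463.

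The direction of the 42 genes went with the GC content of their transcripts. Of the 10 genes whose longest transcript was at least 55% GC, 8 were higher and none was lower; of all genes in that range 54.8% were higher and 4.61% lower. Of the 13 under 45% GC, none was higher and 11 were lower, where 4.47% of all genes were higher and 51.0% lower. Of the 19 in between, 5 were higher and 6 lower, where 23.0% of all genes were higher and 16.96% lower. Across the 42 genes Spearman's rho of the log2 fold change with GC content was 0.84 without the correction and 0.44 with it, and across the 12449 genes 0.62 without and 0.038 with it; these are correlations across genes that share the same 6 libraries, given as a description. With transcript length rho was -0.34 across the 42 genes and -0.39 across all genes without the correction. With the correction it was 0.21 and 0.0011 in that order. The median length was 6.56 kb over the 42 genes and 3.72 kb over all genes. The correction acts on both trends, so a corrected value does not tell the part of GC content from that of length. The genes called in the corrected fit included KMT2B, SETD1B, KDM6B and KMT2D among the GC-rich genes, and NSD2, SETD4, SETD6, EHMT1 and KDM5C, higher, with KDM1A and SETD9, lower, between 45% and 55% GC. KDM7A was the one gene under 45% GC that was called in the corrected fit.

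**Figure D3:**
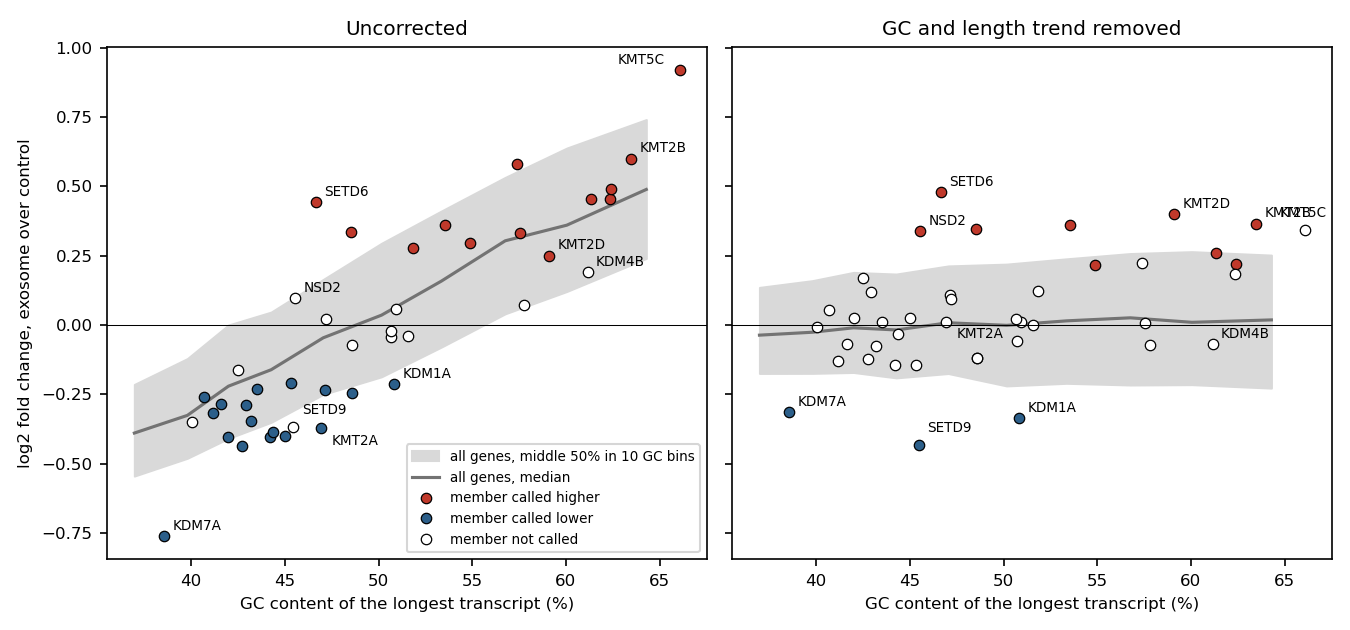
Log2 fold change (exosome over control, y axis) of the 42 genes (points) against the GC content of the longest transcript (x axis), without correction (left panel) and with the GC and length trend removed (right panel); the grey line and band are the median and middle 50% of all 12449 genes in 10 GC bins. On the left the points climb with the band, with all genes called higher right of 45% GC, and on the right 9 genes called higher and 3 called lower remain off the band's centre.

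Relatives within a library can be compared without any scaling between libraries, as the ratio of their read counts; this comparison was added after the data were seen. KMT2B had 0.302 ± 0.0377 reads per KMT2A read in the exosome libraries and 0.153 ± 0.00740 in the control libraries (SD, n = 3 each, as for the ratios after it), a 1.97-fold higher ratio with no overlap. Folds of ratios are taken from the group means of the log2 ratios. For KMT2D over KMT2C the ratio was 1.43 ± 0.141 in exosome libraries and 0.904 ± 0.0168 in control libraries, so that KMT2D had more reads than KMT2C in each exosome library and fewer in each control library. KMT5C over KMT5B was the pair that differed most, at 0.195 ± 0.0476 with exosomes and 0.0848 ± 0.0161 without, 2.28-fold higher. The ratio was also higher with exosomes in each library for SUV39H1 over SUV39H2 (1.58-fold), SETDB1 over SETDB2 (1.33-fold), KDM5C over KDM5A (1.51-fold), KDM6B over KDM6A (1.64-fold) and KDM2B over KDM2A (1.08-fold). These 8 of 11 pairs had the smallest p that an exact two-sided permutation test of 3 against 3 libraries allows, 0.1, or 0.1375 adjusted over the 11 pairs, so none passed 0.05. In SETD1A over SETD1B, KDM1A over KDM1B and KDM3B over KDM3A the groups overlapped (exact permutation p of 0.9, 0.6 and 0.3 in that order). In each pair the first gene had the higher transcript GC content, by 1.03 to 25.4 percentage points. Uncorrected fold changes climbed with GC content over the whole table, so a higher ratio is also the direction of that trend. Among single genes 59.3% of all tested did not overlap between groups. Other gene pairs with a like difference in GC content were not compared, so the count of 8 has no background. With the trend removed the log2 difference between relatives was 0.35 for KMT2B over KMT2A in place of 0.97, 0.37 for KMT2D over KMT2C in place of 0.65, and 0.29 for KMT5C over KMT5B in place of 1.18, and it was below 0 in 4 of the 11 pairs.

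**Figure D4:**
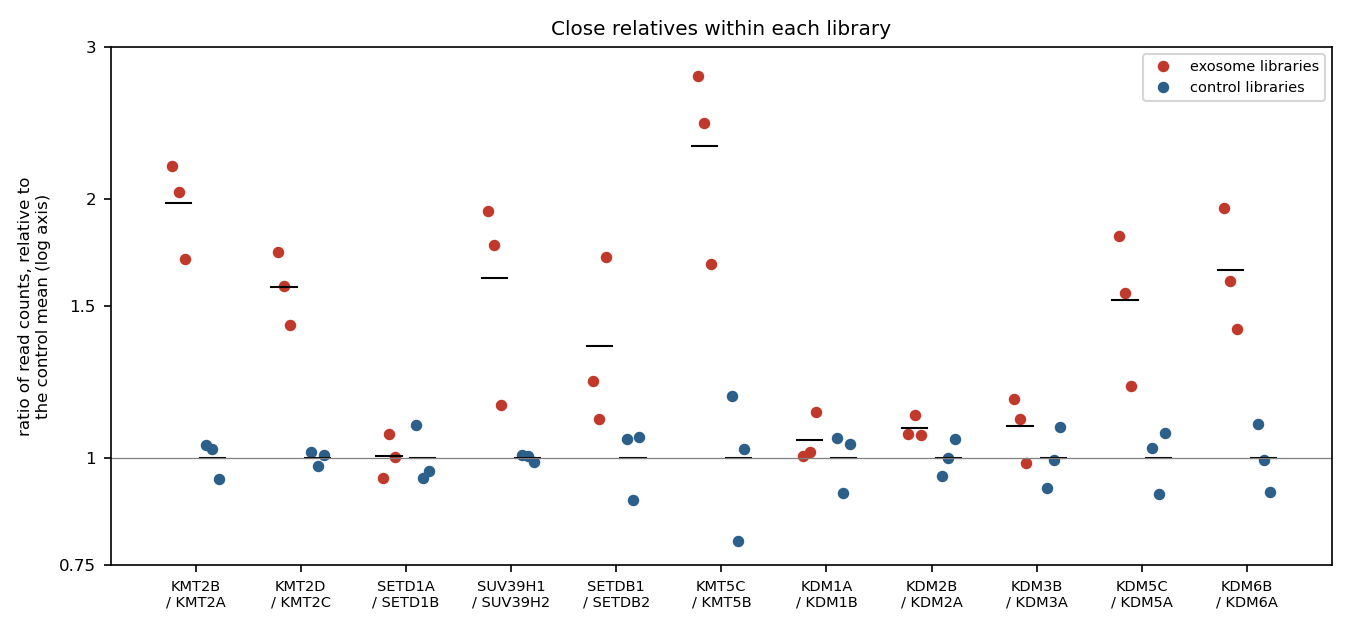
Ratio of the read counts of 11 pairs of relatives in each library, divided by the control mean of the pair (log axis); red points are exosome libraries, blue points control libraries, lines group means. Exosome points lie above all control points in 8 pairs and mix with them in SETD1A/SETD1B, KDM1A/KDM1B and KDM3B/KDM3A. In the 8 pairs the folds taken from the mean log2 ratios, which are not the lines drawn, run from 1.08 to 2.28.

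Levels between genes were set side by side with the authors' FPKM values, which account for gene length. The 42 genes spanned 1.2 to 95.3 FPKM in the exosome group and 1.04 to 92.6 FPKM in the control group, with medians of 9.65 FPKM with exosomes and 9.17 FPKM without. After KDM2A came KDM1A, at 41.6 ± 1.18 FPKM with exosomes and 45.5 ± 2.30 FPKM without (SD, n = 3), and the gap between these 2 genes was wider than the spread in either group. Next in the control group was SETD5, at 25.3 ± 1.61 FPKM with exosomes and 28.4 ± 0.398 FPKM without (SD, n = 3); SETD2, KDM3B and KDM5C followed in the controls at 23.9, 23.5 and 22.6 FPKM (means), which did not differ beyond their SDs. In the exosome group KDM5C, at 29.4 ± 2.57 FPKM, came after KDM1A, and SETD2, at 18.7 ± 1.20 FPKM, was below KDM3B, at 24.1 ± 0.582 FPKM. At the low end were KDM8, at 1.64 ± 0.208 FPKM with exosomes and 1.04 ± 0.0422 FPKM without (SD, n = 3), KDM4D, at 1.23 ± 0.305 FPKM with exosomes and 1.22 ± 0.113 FPKM without (SD, n = 3), and SETDB2, at 1.20 ± 0.191 FPKM with exosomes and 1.44 ± 0.232 FPKM without (SD, n = 3), whose order in the controls was not separated beyond their SDs in the case of SETDB2 and KDM4D.

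**Figure D5:**
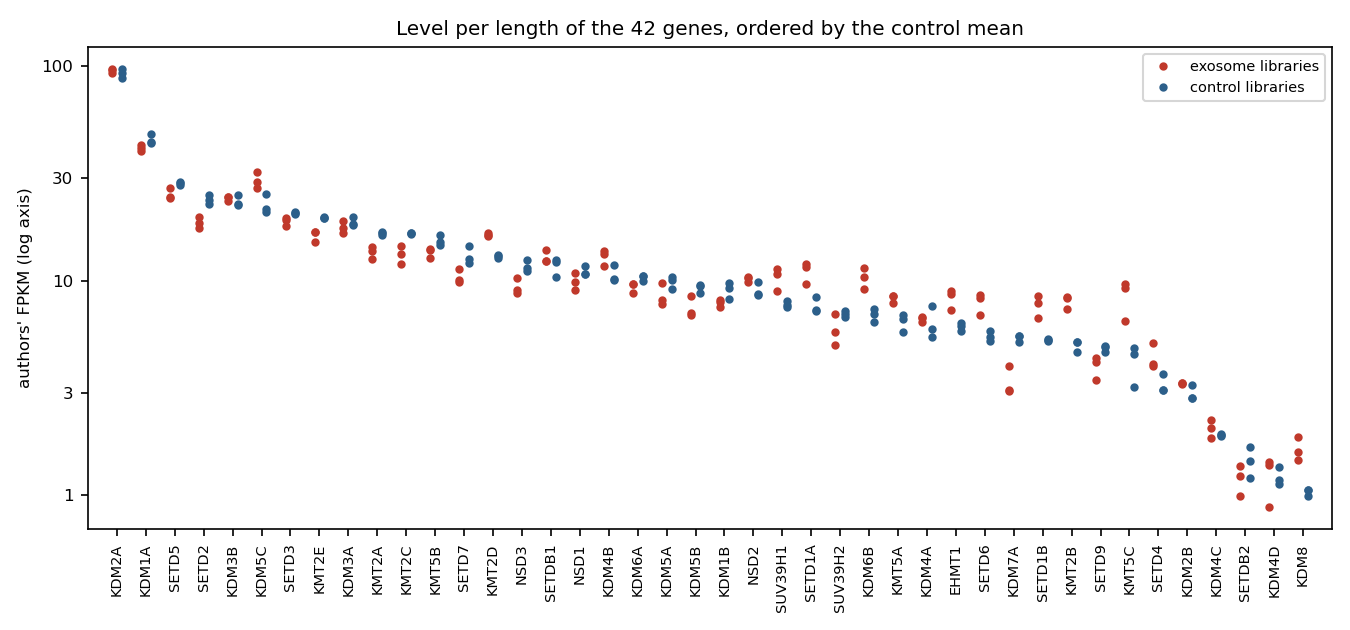
FPKM of the 42 genes in each library (log axis), ordered by the control mean; red points are exosome libraries and blue points control libraries. KDM2A stands highest, with means of 95.3 FPKM with exosomes and 92.6 FPKM without, and KDM8, KDM4D and SETDB2 lie lowest, with means from 1.04 to 1.64 FPKM.

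Promoter windows were described by their composition and short motifs. RefSeq windows were matched for 40 of the 42 genes, taking the 250 bases upstream of the listed start nearest to the gene's own; 10 genes list several starts. The start used lay within 100 bases of the gene's own in 28 of the 40, but 18863 bases away in SETD4, 37110 in KDM4C and 50480 in SETD7, so those 3 windows are not at the start of the gene as annotated in GENCODE 29. The median GC content of the windows was 65.4% for 12 genes called higher, 73.4% for 16 called lower and 61.8% for 12 not called, against 58% over 35116 windows in the table, so the genes called lower, whose transcripts were GC-poor at a median of 43.5%, had the GC-richest windows of these 3 sets. A GC box (GGGCGG, either strand) stood in 8 of the 12 windows of higher genes, 15 of the 16 of lower genes and 5 of the 12 others, 70% of the 40 in all, against 42.6% of all windows. A CCAAT box (CCAAT, either strand) was in 35% of the 40 windows and 32.0% of all windows, and the ETS letters CCGGAAG in 15% and 8.52%. The letters of NRF1 (GCGCATGC), CRE (TGACGTCA), E2F (TTCCCGC), AP-1 (TGANTCA) and TEAD (GGAATG) sites were each found in 1 or 2 of the 40 windows, and those of YY1 (AAGATGGC) in none. A match is a run of letters and was not tested as a binding site.

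The partners and cofactors of these enzymes were read from lists that were chosen with earlier results of these data known. Of 94 related genes tested, 27 were higher and 24 lower, and with the correction 30 were higher and 8 lower. Without the correction these were 28.7% and 25.5%, where 25.6% of all genes were higher and 26.1% lower. With it they were 31.9% and 8.51%, where 18.2% of all genes were higher and 17.3% lower. The same shares of all genes stand beside the counts of each list below. Among 15 subunits of the SET1/MLL complexes 6 were higher and 4 lower (5 higher and none lower with the correction). CXXC1, the CpG-binding subunit of the SET1 complexes, averaged 39.9 ± 3.55 CPM in exosome libraries and 23.3 ± 3.00 CPM in control libraries and MEN1 (menin, partner of KMT2A and KMT2B) 73.9 ± 7.46 CPM in exosome libraries and 47.8 ± 2.001 CPM in control libraries. Their log2 fold changes were 0.77, adjusted p = 1e-05, and 0.63, adjusted p = 1.11e-05, and both stayed higher with the correction (0.41 and 0.30). BOD1L1, a SETD1A partner, and HCFC2 were lower, at -0.39 in BOD1L1 and -0.67 in HCFC2, and neither was called with the correction.

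In Polycomb repressive complex 2, which methylates H3K27, 2 of 10 tested genes were higher and 2 lower, and 4 were higher and none lower with the correction. The catalytic subunit EZH1 was at 0.28, adjusted p = 0.0299 (0.26 with the correction), and the core subunit SUZ12 at -0.44, adjusted p = 0.000117 (-0.11 with the correction). PHF19, an accessory subunit that binds H3K36 methylation, was at 0.24 (-0.00096 with the correction) and AEBP2, another accessory subunit, at -0.31 (0.043 with the correction). Of these 4 genes EZH1 alone was called with the correction; the others called higher there were EZH2 at 0.34, EED at 0.37 and RBBP4 at 0.36. Of 10 methyltransferases outside the name rule, 1 was higher and 1 lower: DOT1L, the H3K79 methyltransferase, averaged 105 ± 7.71 CPM in exosome libraries and 62.7 ± 5.49 CPM in control libraries, a log2 fold change of 0.75, adjusted p = 8.81e-07, and 0.50 with the correction, and ASH1L, an H3K36 methyltransferase, averaged 178 ± 12.7 CPM in exosome libraries and 240.1 ± 3.39 CPM in control libraries, a log2 fold change of -0.43, adjusted p = 7.66e-05, and -0.033 with the correction. Of 9 other JmjC proteins 4 were higher and 2 lower, and the counts with the correction were also 4 and 2. JMJD6 was at 0.66 (0.70 with the correction) and RIOX1, a ribosomal oxygenase, at 0.77 (0.38 with the correction), whereas HR, a demethylase known from hair follicles, was at -0.78 (-1.16 with the correction) and JMJD1C, a relative of KDM3A, at -0.71 (-0.31 with the correction).

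The LSD1-CoREST complex, in which KDM1A works, had 1 of 11 genes higher and 5 lower, and with the correction 2 higher and none lower. RCOR1 (CoREST) averaged 186 ± 10.7 CPM in exosome libraries and 226 ± 4.68 CPM in control libraries, a log2 fold change of -0.28, adjusted p = 0.00348, ZMYM2 was at -0.56, adjusted p = 8.41e-06, and HMG20B, the higher one, at 0.73, adjusted p = 1.5e-06. With the correction RCOR1 was at -0.093 and ZMYM2 at -0.044, neither called, and HMG20B at 0.19, adjusted p = 0.0118. HDAC2, named after its values were seen, was the one related gene that was called in opposite directions, at -0.27 without and 0.21 with the correction. Of 13 partners and readers of H3K9 methylation 4 were higher and 6 lower (3 and 3 with the correction): UHRF1, which links H3K9 methylation to DNA methylation, was at 0.63, adjusted p = 8.65e-06, TRIM28, the SETDB1 recruiter, at 0.39, adjusted p = 0.000184, ATF7IP, which stabilises SETDB1, at -0.66, adjusted p = 1.39e-06, and ZNF644, a partner of EHMT1, at -0.63, adjusted p = 9.72e-06. TRIM28 was at -0.063 with the correction, and the other 3 kept their direction and call.

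Of 12 readers of H3K36 and H4K20 methylation 4 were higher and 1 lower (6 and none with the correction). HDGFL2 was at 0.77, adjusted p = 1.52e-05, BRPF1, a scaffold of histone acetyltransferases, at 0.58, adjusted p = 0.000153, and ZMYND11, a reader of H3K36 trimethylation, at -0.32, adjusted p = 0.00259. With the correction HDGFL2 was at 0.39 and BRPF1 at 0.37, both called, and ZMYND11 at -0.076, not called. Among 15 tested enzymes of the cofactors 5 were higher and 3 lower (5 and 2 with the correction). MAT2A, which makes S-adenosylmethionine, averaged 443 ± 37.5 CPM in exosome libraries and 299 ± 31.2 CPM in control libraries, a log2 fold change of 0.57, adjusted p = 1.54e-05, and 0.62 with the correction. SHMT2, the mitochondrial enzyme of serine and folate metabolism, was at 0.47, adjusted p = 0.000101, and 0.20 with the correction. AHCYL1, a relative of S-adenosylhomocysteine hydrolase, was at -0.33, adjusted p = 0.00131, and MTAP, of methionine salvage, at -0.30, adjusted p = 0.0256, with -0.31 and 0.10 after the correction.

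Exons of 20 of the 42 genes overlap those of another annotated gene in GENCODE 29, 19 of them on the opposite strand, and 9 overlap a gene that is in the table: KDM2B with RNF34, KDM5A with CCDC77, KMT2A with AP001267.5, KMT2B with IGFLR1, KMT2E with SRPK2, NSD3 with DDHD2, SETD6 with CNOT1, SETDB1 with CERS2 and SUV39H2 with DCLRE1C. No source used here states whether reads were counted by strand, so reads of these genes and of their overlapping neighbours may not be told apart.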

How the data were processed

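RNA of 6 SK-MES-1 cultures was extracted with Trizol and sequenced from NEBNext Ultra libraries, per the labels' protocols, and reads were aligned with STAR to GRCh38 (hg38), per the submitters' processing notes. No source used here names the counting program, its annotation or its use of strand. Per the file headers, the deposited table holds the authors' read counts per gene, which were used for every test, and the authors' FPKM, which were used to set levels of different genes side by side. The authors' normalised signal, log2 fold changes and p-values in the deposited table were not used. Positions are given counted from 1; with 1 added, those of the table equal GENCODE 29 for all 42 genes.

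The test was edgeR's quasi-likelihood test (edgeR 4.0.16, R 4.3.3) with group as the only term, robust dispersions, TMM scaling and the filterByExpr filter, with Benjamini-Hochberg adjustment over 12449 genes and a threshold of 0.05; each SE is the size of the log2 fold change divided by the root of its F statistic. The corrected fit adds an offset per gene and library, from a loess curve (span 0.3) fitted in each library. The curve takes each gene's log2 CPM, less its mean over libraries, on GC content and log2 length of the longest GENCODE 29 transcript. The scripts were tested on simulated counts with a flat dispersion and no GC or length trend between libraries. That simulation cannot show whether the correction removes such a trend. Members, lists and alternatives were chosen with earlier results of these data known; the pairs of relatives were added later. Values per library are given for genes called with groups that did not overlap, up to 4 per role, and for genes whose call the correction ended; KMT2D, NSD2, SETD9 and KDM2A were added after their values were seen; each related list names up to 2 genes per direction with the smallest adjusted p. Alternatives were DESeq2 1.42.0, limma-voom 3.58.1, other scalings and filters (1 CPM in 3 libraries, none), a threshold of 0.01, a replicate block, leaving out libraries, and the correction. Of 100 symbols in the related lists 97 had a row. Depth limits the rarest genes: at 11.01 to 13.6 reads per CPM, KDM8 and KDM4D rest on few reads, and intervals cover the spread between libraries. RefSeq promoter windows (GRCh38.p14) run from 250 bases before to 50 after a start, and only the upstream 250 were read.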

Additional observations from a re-analysis of the deposited data

How the results depend on the processing

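Of the 42 genes, 13 were higher and 17 lower with exosomes, and these counts were the same with DESeq2-type size factors, with limma-voom and with a filter of 1 CPM in 3 libraries. The number of lower genes was 8 with library totals only, 3 with the GC and length offset, 4 with that offset and the replicate block, and 9 at a threshold of 0.01. Of all genes 2495 were lower with library totals only, 2288 with the offset and the replicate block, and 2433 at a threshold of 0.01. Leaving out each library in turn gave 9 to 14 higher and 9 to 17 lower genes. Of all genes 2503 to 3234 were higher and 2608 to 3375 lower in those runs, with 12570 to 12603 tested. Leaving out control library 3 and exosome library 3 together, an alternative chosen after seeing the data, gave 14 and 19. Over all genes that alternative gave 3593 higher and 3603 lower of 12525 tested. Over all genes 3244 were lower, and 2148 with the offset; of the related genes 24 were lower, and 8 with the offset, with and without the replicate block. Same-numbered exosome and control libraries correlated at 0.066, 0.10 and 0.21 in their deviations from the group means, so the numbers were not taken to pair them; each library correlated best with the library of its own number, a hint from the data and not from the design. With the replicate block 14 genes were higher and 17 lower (3444 and 3525 of all genes); KDM4B was the one gene of the 42 whose call differed (adjusted p = 0.0453 with the block). With no filter on low counts 14 were higher and 15 lower (3343 and 3123 of 15761 genes), with KDM4B called and SETD3 and KDM6A not (adjusted p of 0.057 and 0.0581).

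The log2 values below had the other sign than in the fit reported. With the offset they were KDM2B at -0.070, KDM3A at 0.17, KDM3B at 0.020, KDM4B at -0.068, KDM5A at 0.12, KDM6A at 0.012, KMT2A at 0.012, KMT2C at 0.025, KMT5B at 0.054, NSD1 at 0.11, NSD3 at 0.025, SETD1A/SETD1B at -0.074, KDM1A/KDM1B at -0.26, KDM2B/KDM2A at -0.070 and KDM3B/KDM3A at -0.15. With the offset and the replicate block they were KDM2B at -0.068, KDM3A at 0.17, KDM3B at 0.020, KDM4B at -0.063, KDM5A at 0.12, KDM6A at 0.011, KMT2A at 0.014, KMT2C at 0.026, KMT5B at 0.054, NSD1 at 0.10 and NSD3 at 0.025. With library totals only they were KDM2A at 0.042, KDM3B at 0.038, KDM4A at 0.061 and KDM4D at 0.0093. Without control library 3 and exosome library 3 together they were KDM3B at 0.014, KDM4A at 0.15, KDM4C at -0.055, KDM4D at 0.19 and SETDB1 at -0.084. Leaving out each library in turn gave log2 values of -0.063 to 0.0019 for KDM2A, -0.061 to 0.0099 for KDM3B, -0.11 to 0.14 for KDM4A, -0.057 to 0.10 for KDM4C, -0.19 to 0.11 for KDM4D, -0.012 to 0.12 for SETDB1 and -0.035 to 0.070 for SETD1A/SETD1B. Of these genes, KMT2A, KMT2C, KMT5B, NSD1, NSD3, KDM5A and KDM6A were called lower in the fit reported, and none of these 7 was called higher in any alternative. KDM3A, not called in the fit reported, was called lower without exosome library 3 and without control library 3 and exosome library 3 together, and higher with the offset and the replicate block together (adjusted p = 0.0415).

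The cause of these differences was not tested. Depth limits the rarest genes: KDM4D, KDM8, SETDB2 and SETD9 were under 11 CPM in every library, and their standard errors were 0.17 to 0.24. A p that misses the threshold does not show that a gene did not differ.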
